A study of Mus musculus with 8 samples.

Results

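The miR-15, miR-16, miR-195 and miR-497 family was followed in small RNA libraries of isolated mouse cardiomyocytes, the contractile muscle cells of the heart. The members were taken by name from the deposited miRNA counts: mmu-miR-15a-5p, mmu-miR-15a-3p, mmu-miR-15b-5p, mmu-miR-15b-3p, mmu-miR-16-5p, mmu-miR-16-1-3p, mmu-miR-195a-5p, mmu-miR-195a-3p and mmu-miR-497a-5p (the prefix, for mouse, is left out from here on), which are 9 of the 697 mature miRNAs listed. A mean of more than 100 counts per library was reached by 223 miRNAs, of which 5 were members, and these were the 5p strands.

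The libraries came from 4 sham-operated mice and 4 mice after transverse aortic constriction (TAC), a band around the aorta that loads the left ventricle with pressure and leads to heart failure. The mice were males operated at 2 months of age, and the hearts were taken apart by Langendorff perfusion, a flow of enzyme solution through the coronary vessels, 14 weeks after surgery. The sham mice had no constriction, and neither group is described as carrying a transgene or receiving a drug other than the anaesthetic. The strain is not given in the sources used here. Per the study's methods, each sample held part of the cardiomyocytes of 1 heart, so that the libraries are taken as separate mice. The methods speak of 4 pairs of sham and TAC mice but do not say which libraries form a pair. The main tests therefore use no pairing.

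A primary miRNA transcript is cut by Drosha and then by Dicer into a short duplex, of which 1 strand, here the 5p strand, is usually kept by Argonaute and the other, the 3p or passenger strand, is mostly lost. The kept strand finds messenger RNAs through its seed, the bases 2 to 8 counted from the 5′ end. The family is known for lowering cyclins and other cell-cycle genes, and in the heart for its rise as newborn cardiomyocytes leave the cell cycle. The study asked how miRNAs change in failing cardiomyocytes and which of them act on Rbfox2, a splicing regulator.

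The sequences are shown because the family is defined by its seed, and because the loci can be told apart only by the bases outside it. The 5p strands of the family and miR-322-5p, a strand of another locus with the same seed, read as follows from 5′ to 3′ (RefSeq, GRCm38.p6), with the seed in capitals.
miR-15a-5p: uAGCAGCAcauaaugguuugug
miR-15b-5p: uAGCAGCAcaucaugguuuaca
miR-16-5p: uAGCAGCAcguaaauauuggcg
miR-195a-5p: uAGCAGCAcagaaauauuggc
miR-497a-5p: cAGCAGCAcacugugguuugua
miR-322-5p: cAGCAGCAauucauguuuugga

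This seed is held by 10 mature mouse miRNA names of RefSeq, of which 6 were in the count files and 5 were members. Counted from the 5′ end, miR-16-5p and miR-195a-5p shared 19 of 21 bases and differed by G10A and U11G, the closest pair of the family. miR-15a-5p and miR-15b-5p shared 18 of 22 bases and differed by A12C, G20A, U21C and G22A. The most distant pair was miR-16-5p and miR-497a-5p, with 11 of 22 bases in common. No 2 strands had the same sequence, but the sources used here do not say how tags that fit more than 1 strand were assigned.

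The Dleu2 locus makes miR-15a and miR-16 from a noncoding RNA gene. Its hairpins lay on the minus strand of chromosome 14 of GRCm38, Mir16-1 at chr14:61631880-61631972 and Mir15a at chr14:61632027-61632110, with 54 bases between them. Both lay in introns of Dleu2, and Mir16-1 also overlapped 13 bases of an annotated exon. The Smc4 locus makes miR-15b and miR-16 from an intron of the gene for a condensin subunit. There Mir15b lay at chr3:69009772-69009835 and Mir16-2 at chr3:69009902-69009996, on the plus strand with 66 bases between them. The Mir195a/Mir497 locus held Mir497 at chr11:70234717-70234800 and Mir195a at chr11:70235042-70235135, on the plus strand with 241 bases between them. GENCODE annotates no host gene on that strand and a miRNA gene, Mir497b, opposite Mir497.

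miR-16-5p is cut from both Mir16-1 and Mir16-2, so its counts could not be assigned to 1 locus. The passenger strands of these hairpins differ, with 12 of 22 bases in common, and each marks its own locus.
miR-16-1-3p: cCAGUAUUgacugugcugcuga
miR-16-2-3p: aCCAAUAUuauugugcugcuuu
The capitals again mark bases 2 to 8, which differ between these strands and from the family seed. miR-16-1-3p of Dleu2 had 36, 32, 58 and 41 counts in sham and 22, 35, 33 and 30 in TAC. miR-16-2-3p of Smc4 had 3, 3, 3 and 1 counts in sham and 3, 2, 4 and 0 in TAC. The Dleu2 passenger strand was the higher in each of the 8 libraries, and the counts of the Smc4 one were too few for a comparison of groups.

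The libraries held 4005668 to 5392576 miRNA counts in sham and 5507169 to 7798943 in TAC. 1 library stood apart: 3 miRNAs of epithelial cells (miR-141-3p, miR-200b-3p and miR-200c-3p, chosen after their values were seen) had a summed CPM, which is the count scaled to a common library total, of 503 in TAC replicate 4 and 80.3 to 131 in the other libraries. Cardiomyocyte miRNAs were present throughout, with a summed CPM over 5 markers of 160712 to 198133 in sham and 194455 to 245941 in TAC. Both endothelial markers, miR-126a-3p and miR-126a-5p, did not overlap between the groups by library total and were lower in TAC, with sums of 29274 to 34557 against 49248 to 72051, and the first of them is also one of the reference miRNAs described next. The groups overlapped in the summed level of 5 fibroblast and smooth muscle markers (41702 to 49646 in sham, 36697 to 43821 in TAC), of 3 erythroid markers (418 to 1503 and 43.8 to 550) and of 5 leukocyte markers (1305 to 2455 and 1051 to 1448). Single markers of these last 3 lists and of the cardiomyocyte list overlapped too, apart from 1 leukocyte marker above and 1 below. Each marker had counts in at least 1 library, and the part of these cells in the results that follow was not tested. In such bulk libraries, fewer cells of a type and less RNA per cell cannot be told apart.

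The direction of each of the 5 tested members, by TMM or library totals against the reference scaling, turned with the scale. Of the rarer strands, miR-16-1-3p and miR-15a-3p had the lower mean in TAC both by library totals and on the reference scale. For miR-15a-3p this rested on sham replicate 3, with 16 counts. Its median went the other way, at 0.28 CPM in sham against 0.43 by library totals and 0.81 on the reference scale in TAC. The study scaled its libraries to a pair of reference miRNAs, miR-19b-3p and miR-126a-3p, which it describes as unaltered and as checked by QPCR. Here the reference scaling was built from these miRNAs as 1 factor for all TAC libraries, which need not be how the study computed it. The factor multiplies the TAC library sizes by 0.537 and moves each log2 fold change up by 0.90 against library totals. Over the 223 tested miRNAs, the log2 fold change (TAC over sham) had a median of 0.61 on this reference scaling, of -0.082 by TMM (a scaling that centres most miRNAs) and of -0.29 by library totals. The members are therefore given on more than 1 scale, relative to the median of all tested miRNAs, and as ratios within a library, which need no scaling.

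miR-16-5p was by far the most abundant member. It ranked 48 of 697 by mean count, followed by miR-195a-5p at 97, miR-497a-5p at 118, miR-15b-5p at 120 and miR-15a-5p at 148. The mature strands have nearly the same length, 21 or 22 bases, and each tag stands for 1 strand, so that CPM could be set side by side without a length correction, although ligation and amplification favour some sequences over others. Within each group the ranges of miR-16-5p, miR-195a-5p and miR-15a-5p overlapped those of no other tested member, while the ranges of miR-497a-5p and miR-15b-5p overlapped in both groups, so that these neighbours were not separated beyond their spread. The family made up 0.257% ± 0.0234 of all sham miRNA counts and 0.206% ± 0.0108 of those of TAC (SD, n = 4 each).

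miR-16-5p, the strand shared by Dleu2 and Smc4, had CPM by library total of 1922, 1714, 2060 and 1657 in sham and 1497, 1467, 1633 and 1576 in TAC. After reference scaling the TAC libraries stood at 2789, 2734, 3041 and 2935. Every TAC library was thus below every sham library on the one scale and above every sham library on the other. The sham mean was 1838 ± 187 and the reference-scaled TAC mean 2875 ± 139.8 (SD, n = 4 each).

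miR-195a-5p, a strand of the Mir195a/Mir497 locus, had CPM by library total of 294, 299, 295 and 217 in sham and 205, 180, 220 and 285 in TAC. The groups overlapped only through sham replicate 4, which lay below TAC replicates 3 and 4, while every TAC library was below the other 3 sham libraries. The reference-scaled TAC values were 382, 335, 410 and 531, all above the sham values.

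miR-497a-5p comes from the same locus, but its libraries fell out otherwise. Its CPM by library total was 174, 181, 178 and 167 in sham and 125, 96.9, 97.3 and 98.3 in TAC, with no overlap. The reference-scaled TAC values were 233, 181, 181 and 183, which overlapped the sham values.

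miR-15b-5p of Smc4 had CPM by library total of 153, 155, 175 and 147 in sham and 89.9, 100.01, 114 and 124 in TAC. miR-15a-5p of Dleu2 had 86.4, 88.3, 93.9 and 86.4 in sham and 65.7, 64.5, 55.8 and 48.6 in TAC. Both were lower in every TAC library on this scale. The reference-scaled TAC values, 167, 186, 212 and 232 for miR-15b-5p and 122, 120, 104 and 90.5 for miR-15a-5p, overlapped the sham values.

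**Figure D1:**
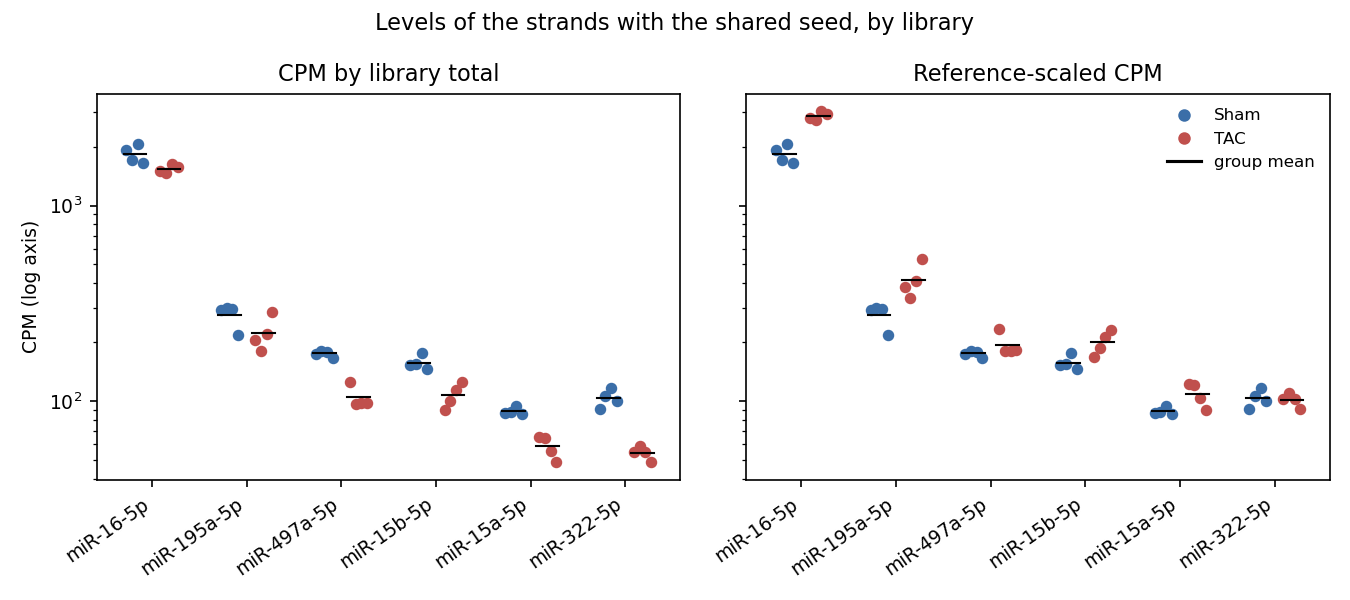
CPM of the 5 tested members and of miR-322-5p in each of the 4 sham and 4 TAC libraries, by library total (left) and after reference scaling (right), on a log axis with group means as lines. By library totals miR-195a-5p is the only one of the 6 whose groups overlap, and after reference scaling only miR-16-5p and miR-195a-5p lie wholly higher in TAC.

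In the edgeR quasi-likelihood test with the reference scaling and Benjamini-Hochberg adjustment over the 223 miRNAs, 2 of the 5 tested members were higher in TAC at an adjusted p under 0.05 and 0 were lower. Of all tested miRNAs, 63.7% were called higher in this way and 0.897% lower. miR-16-5p had a log2 fold change of 0.65 ± 0.11 (SE, adjusted p = 0.00127), and -0.043 by TMM and -0.25 by library totals. miR-195a-5p had 0.59 ± 0.18 (SE, adjusted p = 0.0175), and -0.10 by TMM and -0.31 by library totals. With a fold change above 1.7 as well, 0 members were called higher, against 36.8% of all tested miRNAs. The study used this fold with a p-value that it does not describe as adjusted, so this share is not the one at its threshold. The other tested members missed the adjusted threshold at log2 fold changes of 0.34 ± 0.15 for miR-15b-5p (adjusted p = 0.0647), 0.30 ± 0.15 for miR-15a-5p (adjusted p = 0.0986) and 0.15 ± 0.14 for miR-497a-5p (adjusted p = 0.349), all from edgeR with SE. The call of miR-195a-5p was lost without sham replicate 3, at an adjusted p of 0.0595, and with 1 reference factor per library, at an adjusted p of 0.0651. With 1 factor per library miR-16-5p stayed called, at 0.60 (edgeR adjusted p = 0.0272). The SE and p of the main fit take the reference factor as known. An exact permutation test that computed the factor anew for each split of the libraries gave p = 0.0286 for miR-16-5p and p = 0.0857 for miR-195a-5p. Without TAC replicate 4, the library that stood apart, miR-16-5p stood at 0.69 (adjusted p = 0.00174), miR-195a-5p at 0.50 (adjusted p = 0.0231) and miR-15a-5p at 0.44 (adjusted p = 0.0211), which made 3 calls. Without sham replicate 1 the count was 4, with miR-15a-5p and miR-15b-5p added. All 5 members had a higher log2 fold change in that fit, miR-497a-5p too, at 0.27 (adjusted p = 0.126). The share of all tested miRNAs called was not taken for the fits with a library left out, so these counts are not read as particular to the members.

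By library totals the same edgeR test called 3 of the 5 tested members lower in TAC and 0 higher, against 20.6% and 1.35% of all tested miRNAs. With a fold change above 1.7 as well, 0 members were called in either direction, against 10.3% of all tested miRNAs lower and 0.448% higher. The 3 members called lower on the adjusted p alone were miR-497a-5p, with a log2 fold change of -0.75 ± 0.14 (SE, adjusted p = 0.00511), miR-15a-5p with -0.60 ± 0.15 (SE, adjusted p = 0.0185) and miR-15b-5p with -0.56 ± 0.15 (SE, adjusted p = 0.0254). By TMM only miR-497a-5p was called lower, at -0.54 ± 0.14 (SE, adjusted p = 0.0328), against 8.52% of all tested miRNAs, and 0 members were called higher, against 4.93%. It fell short of the fold of 1.7, which 4.48% of all tested miRNAs passed with lower values. With each library left out in turn, a choice made after the data had been seen, miR-497a-5p stayed called by library totals (highest adjusted p 0.0279). miR-15a-5p lost the call without sham replicate 3 (adjusted p = 0.0540) or TAC replicate 3 (adjusted p = 0.0550), and miR-15b-5p without sham replicate 3 (adjusted p = 0.0748), TAC replicate 1 (adjusted p = 0.0527) or TAC replicate 2 (adjusted p = 0.0888).

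A change of scaling moves all members by nearly the same amount, so their order was bound to be the same under these 3 scalings. Relative to the median of the tested miRNAs, the log2 fold change was 0.040 for miR-16-5p and -0.020 for miR-195a-5p, so that both stood in the middle, with 53.8% and 47.1% of the tested miRNAs below them. miR-15b-5p stood at -0.26 with 23.8% below, miR-15a-5p at -0.31 with 21.1% below, and miR-497a-5p at -0.45 with 14.3% below. On the reference scale the 5 members had a median of 0.34, against 0.61 over all tested miRNAs. The 2 reference miRNAs, with 12.6% of the tested miRNAs below miR-126a-3p and 6.28% below miR-19b-3p, lay lower than all 5. By library total, 4 of the 5 tested members had every TAC library below every sham library, as did 27.4% of all tested miRNAs, and 0 had every TAC library above, against 3.59%. On the reference scale 2 had every TAC library above, as did 54.7% of all, and 0 had every TAC library below, against 0.448%.

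**Figure D2:**
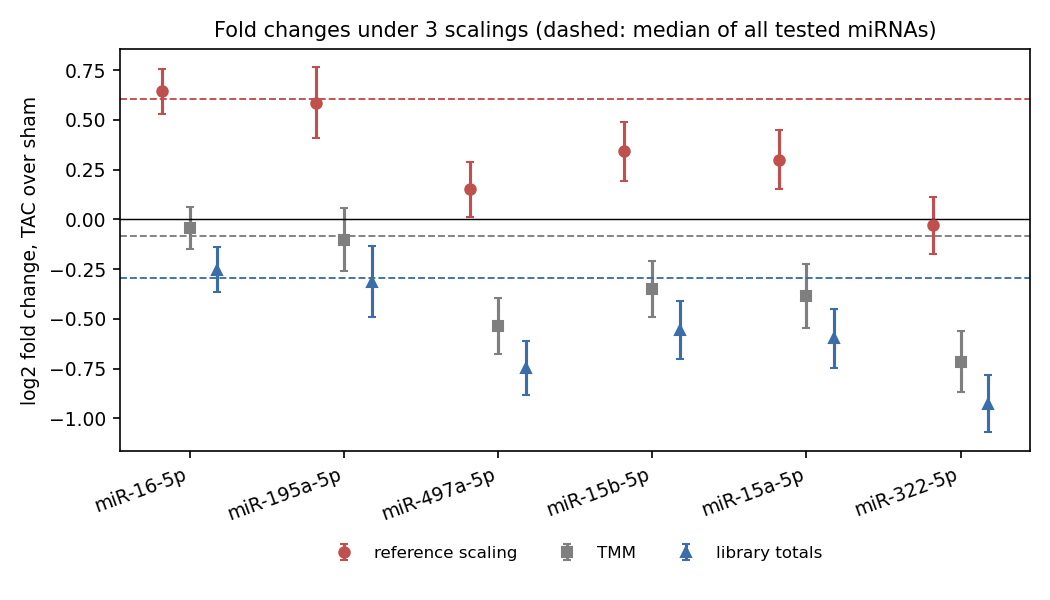
Log2 fold changes (TAC over sham, edgeR) with SE of the 5 tested members and of miR-322-5p under the reference scaling, TMM and library totals, with the median of the 223 tested miRNAs under each scaling as a dashed line. miR-16-5p and miR-195a-5p sit near the dashed line under each scaling, and the other 4 lie below it.

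The ratio of 2 strands within a library compares these strands without a scaling. miR-16-5p is made by both Dleu2 and Smc4, so its ratios to miR-15a-5p and miR-15b-5p do not set 1 locus against another. In all, 13 log2 ratios (counts plus 1) were compared by an exact permutation test, 2-sided, which has 70 ways to split the libraries and can go no lower than p = 0.0286. The adjusted p is over the 13 ratios. No ratio passed an adjusted p of 0.05, and 3 reached the smallest exact p, all with miR-16-5p as the numerator, so that they share its counts. With only 3 of the 13 ratios at that floor, an adjusted p below 0.05 was out of reach for them whatever their size.

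miR-16-5p over miR-497a-5p was 11.01, 9.44, 11.5 and 9.94 in sham and 11.9, 15.1, 16.8 and 16.01 in TAC. Every TAC library was above every sham library, by 0.51 on the log2 scale (exact p = 0.0286, adjusted p = 0.124). miR-16-5p over miR-15b-5p was 12.6, 11.1, 11.7 and 11.3 in sham and 16.6, 14.7, 14.3 and 12.6 in TAC, a log2 difference of 0.32 (exact p = 0.0286, adjusted p = 0.124). miR-16-5p over miR-15a-5p was 22.2, 19.4, 21.9 and 19.1 in sham and 22.7, 22.7, 29.2 and 32.3 in TAC, a log2 difference of 0.36 (exact p = 0.0286, adjusted p = 0.124). The groups of these 3 ratios did not overlap, but for the last of them TAC replicates 1 and 2 lay just above the highest sham library. With 1 library left out, the exact p rose to at most 0.143 for miR-16-5p over miR-15a-5p (without sham replicate 2) and to at most 0.0571 for the others (without sham replicate 1). Without TAC replicate 4 the differences were 0.47, 0.38 and 0.26 in the order given, each still positive.

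Within the Mir195a/Mir497 locus, miR-195a-5p over miR-497a-5p was 1.68, 1.65, 1.65 and 1.302 in sham and 1.64, 1.85, 2.26 and 2.90 in TAC. The groups overlapped, with a log2 difference of 0.43 (exact p = 0.114, adjusted p = 0.297), which was 0.28 without TAC replicate 4. miR-16-5p over miR-195a-5p, the pair closest in sequence, was 5.73 to 7.63 in sham and 5.53 to 8.16 in TAC, a log2 difference of 0.073 (exact p = 0.629, adjusted p = 0.712).

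miR-15b-5p over miR-15a-5p, which sets Smc4 against Dleu2 through strands that only 1 of them makes, had nearly the same mean in both groups and a different spread. It was 1.76, 1.75, 1.87 and 1.69 in sham and 1.37, 1.55, 2.03 and 2.56 in TAC, so that the TAC values lay on both sides of all sham values. The log2 difference was 0.043 (exact p = 0.886, adjusted p = 0.886), and -0.12 without TAC replicate 4. The SD of the log2 ratio was 0.058 in sham and 0.40 in TAC, which was not tested. The remaining ratios between 5p strands overlapped, with log2 differences of 0.29 for miR-195a-5p over miR-15a-5p (exact p = 0.343, adjusted p = 0.619), 0.24 for miR-195a-5p over miR-15b-5p (exact p = 0.114, adjusted p = 0.297), -0.15 for miR-497a-5p over miR-15a-5p (exact p = 0.2, adjusted p = 0.433) and -0.19 for miR-497a-5p over miR-15b-5p (exact p = 0.4, adjusted p = 0.619).

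**Figure D3:**
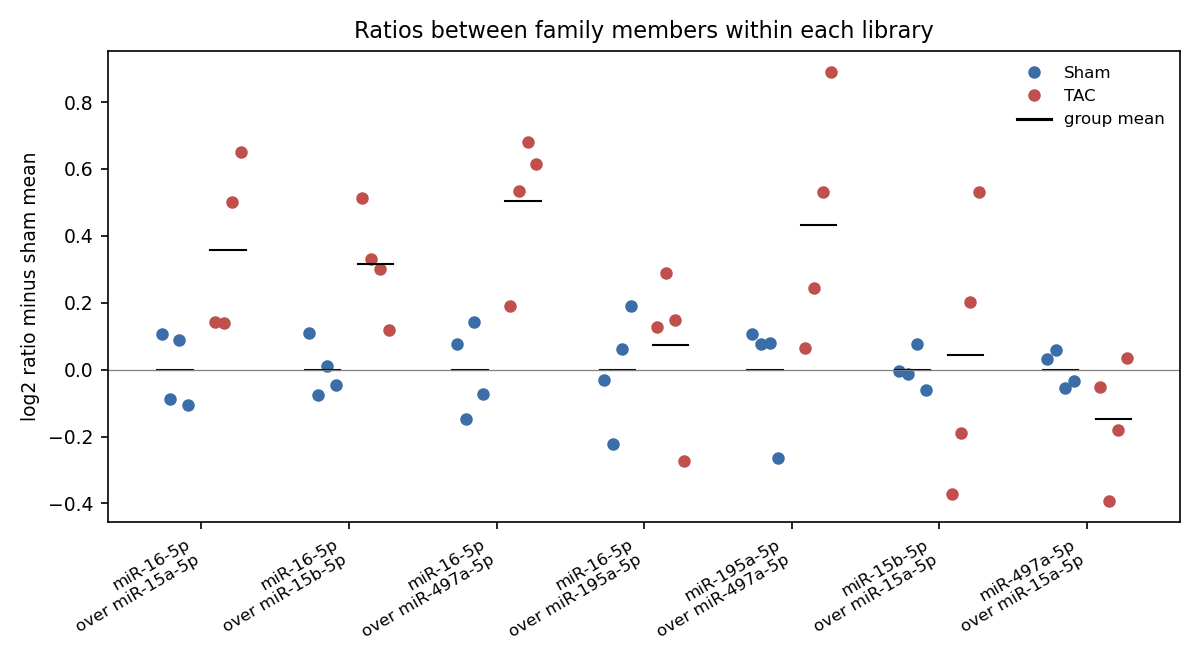
Log2 ratios of 7 pairs of members within each library, less the sham mean of that ratio, with points for libraries and lines for group means. The 3 ratios of miR-16-5p to miR-15a-5p, miR-15b-5p and miR-497a-5p lie wholly higher in TAC, while miR-15b-5p over miR-15a-5p spreads to both sides of the sham libraries.

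As shares of the family counts, miR-16-5p took 71.5% ± 1.51 in sham against 75.1% ± 1.40 in TAC (SD, n = 4 each), and the libraries did not overlap, at 69.3% to 72.4% and 73.4% to 76.3%. The share of miR-497a-5p was 6.85% ± 0.515 in sham and 5.10% ± 0.790 in TAC, with every TAC library lower, although TAC replicate 1 at 6.24% lay next to the lowest sham library at 6.27%. miR-15b-5p took 6.14% ± 0.272 and 5.19% ± 0.547, and miR-15a-5p took 3.47% ± 0.234 and 2.87% ± 0.526, each with overlap. miR-195a-5p held 10.7% ± 1.12 in sham and 10.8% ± 1.72 in TAC. Shares sum to a whole, so that a larger share of miR-16-5p leaves less for the others, and they were not tested. Without TAC replicate 4, the share of miR-16-5p was 4.15 percentage points higher in TAC, and the differences for miR-497a-5p and miR-195a-5p were -1.58 and -0.80 percentage points.

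Summed over its member strands, without the shared miR-16-5p, the Mir195a/Mir497 locus held 18.2% ± 1.42 of the family counts in sham and 16.4% ± 1.60 in TAC, Smc4 held 6.37% ± 0.322 and 5.37% ± 0.476, and Dleu2 held 3.85% ± 0.267 and 3.11% ± 0.531 (SD, n = 4 each). The sums leave out miR-16-2-3p of Smc4 and miR-497a-3p, which are no members. The order of the loci was the same in both groups. Dleu2 and Smc4 also make miR-16-5p, so this order does not rank the whole output of the loci. The log2 differences of the summed levels on the reference scale were 0.26 for Dleu2, 0.33 for Smc4, 0.42 for Mir195a/Mir497 and 0.58 for the whole family. By library totals they were -0.64, -0.57, -0.47 and -0.32, with every TAC library below every sham library in all 4 sums, and by TMM -0.43, -0.36, -0.26 and -0.11. Dleu2 was thus the lowest and the whole family, which is mostly miR-16-5p, the highest. A change of scaling moves all 4 sums by the same amount, so their order is bound to be the same under each of the 3.

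The 5p strands made up 98.7% of the family counts in sham and 99.0% in TAC. The passenger strands were all under the mean minimum of 100 counts. miR-195a-3p, the most abundant of them, had 65, 116, 93 and 53 counts in sham and 89, 69, 70 and 60 in TAC. miR-15b-3p had 19, 45, 35 and 18 in sham and 30, 19, 29 and 13 in TAC, and miR-15a-3p had 0, 3, 16 and 0 in sham and 1, 5, 2 and 4 in TAC. miR-497a-3p, which is no member but comes from the Mir497 hairpin, had 9, 9, 17 and 16 in sham and 12, 12, 11 and 18 in TAC. The counts of the 2 groups overlapped for each of these strands.

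miR-16-1-3p, the passenger strand of Dleu2 shown above, was the exception in CPM by library total, with 7.78, 5.93, 11.8 and 10.2 in sham and 3.99, 4.49, 5.20 and 4.15 in TAC. Every TAC library was lower on this scale, while on the reference scale the group means were 8.94 ± 2.61 and 8.31 ± 1.00 (SD, n = 4 each) and overlapped. In an edgeR fit without the count minimum, the 4 passenger strands that are members had log2 fold changes from -0.26 to 0.28 on the reference scale, with adjusted p from 0.510 to 0.884. The ratios of the 5p to the 3p strand of a hairpin overlapped between the groups, with log2 differences of -0.46 for miR-15a (exact p = 0.657, adjusted p = 0.712), 0.26 for miR-15b (exact p = 0.657, adjusted p = 0.712) and 0.31 for miR-195a (exact p = 0.429, adjusted p = 0.619).

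**Figure D4:**
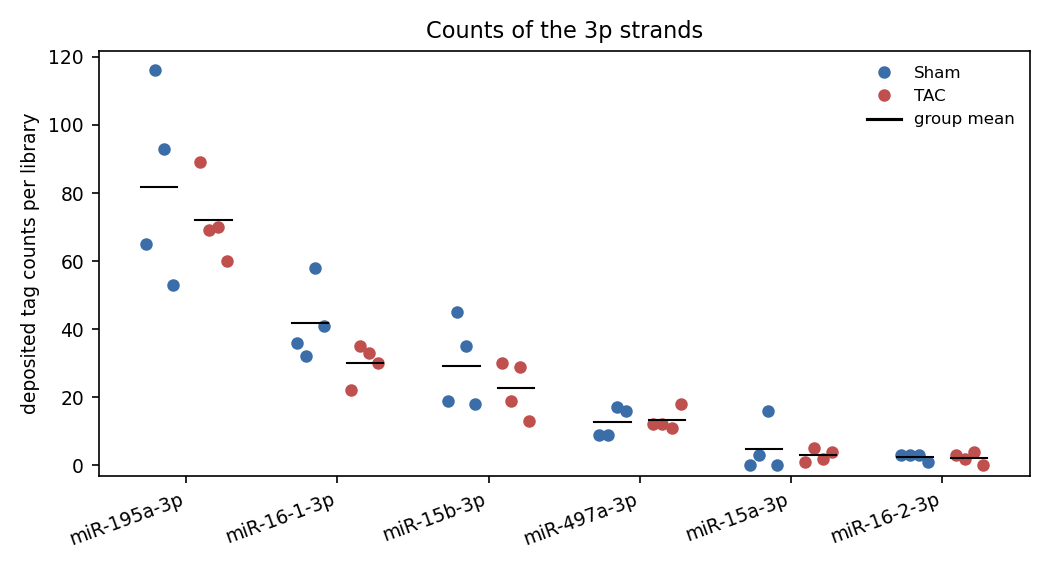
Deposited tag counts of the 3p strands of the 6 hairpins in each of the 4 sham and 4 TAC libraries, with group means as lines. miR-16-1-3p of Dleu2 has 22 to 58 counts and miR-16-2-3p of Smc4 0 to 4, and the groups of each strand overlap in counts.

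miR-322-5p, which has the family seed but comes from an X-linked cluster with miR-503 and miR-351, stood lower than every tested member relative to the median. Its CPM by library total was 91.4, 106, 117 and 100 in sham and 55.2, 59.2, 55.0 and 48.7 in TAC, with no overlap. Its log2 fold change was -0.030 on the reference scale (SE 0.14, edgeR adjusted p = 0.871), -0.72 by TMM (adjusted p = 0.0196) and -0.93 by library totals (adjusted p = 0.00241). Relative to the median of the tested miRNAs it stood at -0.64, with 8.52% of them below it.

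The tested miRNAs outside the family whose log2(CPM + 1) by library total was most like that of a member over the 8 libraries differed from member to member. These correlations are descriptions over libraries that fall into 2 groups and share their totals. miR-195a-5p was most like miR-199b-3p and miR-199a-3p (Pearson r = 0.974 for both) and miR-214-3p (0.960). miR-199b-3p and miR-199a-3p also had nearly the same log2 fold change on the reference scale, 0.58 for both, and are not counted as separate neighbours. miR-199a-3p and miR-214-3p are among the fibroblast and smooth muscle markers, and their part in the level of miR-195a-5p was not tested. miR-497a-5p, of the same locus, was most like miR-101a-3p (0.982), miR-351-5p (0.954) and miR-503-5p (0.946), the last 2 of which lie in the cluster of miR-322. miR-15a-5p was most like miR-101a-3p (0.960), miR-322-5p (0.960) and miR-30a-5p (0.958). miR-15b-5p was most like miR-106b-5p (0.955), miR-25-3p (0.954) and miR-92a-3p (0.940), of which the first 2 are made from 1 cluster. miR-16-5p was most like miR-9-5p (0.965), miR-541-5p (0.933) and miR-106b-5p (0.933).

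The 3′ UTR of Rbfox2, the gene the study is about, holds 2 matches to the family seed. The match searched was UGCUGCU, on the sense strand of the UTR of 5172 bases of the GENCODE transcript, and both windows are written 5′ to 3′ as RNA with the match in capitals.
chr15:77083225-77083246 (GRCm38, minus strand): uucuuuuauuaacaUGCUGCUc
chr15:77082530-77082551 (GRCm38, minus strand): uucaccugagggauUGCUGCUa
They lie at bases 916 to 937 and 1611 to 1632 of the UTR. Of 719 genes with a UTR at least as long, 54.1% held the match at least once in their first 5172 bases and 21% at least 2 times. The 5 tested members and miR-322-5p have the same seed, so that the match alone does not tell them apart. The study lists a site over the match further along the UTR as conserved and bound by Argonaute. It reports that miR-16-5p lowered the activity of a luciferase reporter with that site. It also reports less RBFox2 protein in newborn rat cardiomyocytes given miR-16-5p. The match nearer the start of the UTR is not among its listed candidate sites. The use of either match was not tested here.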

How the data were processed

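The authors cleaned the small RNA reads and deposited whole-number tag counts per mature miRNA for each library, without normalization. Per the labels, 1 μg of total RNA went into each library, and the submitters' processing notes name mm10 and StringTie 1.3.1. The miRNA aligner, the miRNA reference version and the handling of tags that fit several miRNAs are not given in the sources used here. Members and marker lists were chosen with earlier results of these data known.

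Counts were tested in R 4.3.3 with edgeR 4.0.16 (quasi-likelihood F test, group as the only term, p-values adjusted by Benjamini-Hochberg) for all 223 miRNAs whose mean was over 100 counts. Library sizes were miRNA totals, times 0.537 in TAC, which is how far the mean CPM of miR-19b-3p and miR-126a-3p fell from sham to TAC (geometric mean of both ratios). SE was obtained by dividing the log2 fold change by the square root of F. Single ratios used an exact permutation test. The steps were tested on simulated data. TMM, library totals, DESeq2 1.42.0, other references, filters, pseudocounts, a replicate block and each library left out were tried. The named miRNAs were the members, the 2 reference miRNAs, those with the family seed, the other arms of the same hairpins, and the 3 miRNAs most like each tested member. The 3 epithelial miRNAs were added after their values were seen. miR-195b and miR-497b were not analysed here. No 2 libraries were copies. Totals of 4005668 to 7798943 counts put the counting error of a tested miRNA below the biological coefficient of variation of 0.255. Sequences are from RefSeq (all 9 members matched) and GENCODE vM21, both of GRCm38, the build that mm10 names. Python 3.11.15 with numpy 2.4.6, pandas 2.3.3 and matplotlib 3.10.9 made the other values and plots.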

Additional observations from a re-analysis of the deposited data

Results flagged for a closer look

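In 5 of the 52 groups of 4 libraries looked at, 1 library lay far from the other 3 by Dixon's criterion, which chance alone gives in about 1 group in 20. miR-195a-5p was low in sham replicate 4, at 217 CPM by library total against 294 to 299 in the other sham libraries, and the log2 ratio of miR-195a-5p over miR-497a-5p in that library was 0.38. miR-497a-5p was high in TAC replicate 1, at 125 CPM. In sham replicate 3 miR-15a-3p stood at 3.26 CPM, from 16 counts, and the summed CPM of the Dleu2 strands at 109.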

How the results depend on the processing

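The direction of all 5 tested members changed with the scale. On the log2 scale, TMM gave -0.38 for miR-15a-5p, -0.35 for miR-15b-5p, -0.043 for miR-16-5p, -0.10 for miR-195a-5p and -0.54 for miR-497a-5p, and library totals gave -0.60, -0.56, -0.25, -0.31 and -0.75. DESeq2 with its own size factors gave -0.34, -0.29, 0.0068, -0.046 and -0.49. The summed levels turned to -0.43 (Dleu2), -0.36 (Smc4), -0.26 (Mir195a/Mir497) and -0.11 (family) by TMM, and to -0.64, -0.57, -0.47 and -0.32 by library totals. The count of members called higher was 0 by TMM, library totals and DESeq2 with its own size factors, 1 with 1 reference factor per library, 4 with miR-19b-3p alone as reference, and 1 to 4 with each library left out. With 1 reference factor per library, miR-16-5p was called at 0.60 (edgeR adjusted p = 0.0272), while miR-195a-5p stood at 0.54 (adjusted p = 0.0651) and was not. With a fold change above 1.5 in place of 1.7 the count called higher was 2, and with the threshold of 1.7 it was 0 to 1 with each library left out. The count called lower was 1 by TMM, 1 by DESeq2 with its own size factors and 3 by library totals. Shares over all tested miRNAs are given only for the reference scaling, TMM and library totals with all libraries. With each library left out, the summed level of the family ranged from 0.48 to 0.71, the share of miR-195a-5p from -0.80 to 0.52 percentage points and that of miR-15a-3p from -0.025 to 0.013. The log2 ratio differences that changed sign ranged from -0.12 to 0.18 for miR-15b-5p over miR-15a-5p, from -0.0017 to 0.19 for miR-16-5p over miR-195a-5p, from -1.26 to 0.030 for miR-15a-5p over miR-15a-3p and from -0.090 to 0.58 for miR-15b-5p over miR-15b-3p. Among 5p strands alone, the share of miR-195a-5p differed by -0.0010 percentage points. Same-numbered sham and TAC libraries had deviations correlated at -0.370 to 0.315, against -0.192 to 0.417 for other pairs. The study's methods speak of 4 pairs of sham and TAC mice, but no source says that the numbers mark these pairs. The numbers were therefore not taken to pair the libraries in the main tests. With a replicate block, 1 member was called higher, miR-16-5p at 0.65 (edgeR adjusted p = 0.00701), while miR-195a-5p stood at 0.57 (adjusted p = 0.0535) and was not called. By library totals with the block, chosen after seeing the data, miR-15a-5p and miR-15b-5p both had an adjusted p of 0.0590.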
